A study of Mus musculus with 5 samples.

Results

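The 10 genes described here encode receptor chains of the common gamma chain cytokine family and the JAK kinases and STAT transcription factors that these receptors use: Il2rb, Il2rg, Il7r, Il4ra, Il21r, Jak1, Jak3, Stat5a, Stat5b and Stat6. They were taken by name, and each matched 1 Ensembl gene ID among the 55364 rows of the count tables. All 10 passed the filter on low counts that left 8468 genes for testing. The libraries were 3' mRNA libraries of invariant natural killer T (iNKT) cells, T cells that recognise lipids on CD1d, sorted from mouse liver with a PBS57-loaded CD1d tetramer and an antibody to TCRb. The healthy group was 2 wild-type mice given PBS. The HCC group was 3 wild-type mice with hepatocellular carcinoma after 1 injection of 25 mg/kg diethylnitrosamine (DEN), a liver carcinogen, at 15 days of age. The labels describe male C57BL/6 mice, and mice were killed at 38 to 42 weeks of age. No genetic change distinguishes the groups, and the tumours come from a chemical given before weaning. Each library is described as from a separate mouse.

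Cytokines of this family (IL-2, IL-4, IL-7, IL-15 and IL-21 among them) bind receptors that share the common gamma chain, encoded by Il2rg. The private chain of each receptor docks JAK1 and the gamma chain docks JAK3. The kinases phosphorylate the receptor and then STAT proteins, which enter the nucleus: STAT5A and STAT5B after IL-2, IL-7 and IL-15, STAT6 after IL-4, and mainly STAT3 after IL-21. IL-15, presented to cells that carry Il2rb, is known as the main survival cytokine of iNKT cells in mouse liver, and IL-7 supports other subsets.

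Levels are CPM, counts scaled to the total of their own library, which was 1718452 to 2224356 counts. Where values follow each other without further labels, they stand in the order healthy 1, healthy 2 and HCC 1, HCC 2, HCC 3. A count of 0 allows up to 3 counts, 1.35 to 1.75 CPM in these libraries. Intervals on counts are 95% exact Poisson or binomial intervals and cover counting error only, since reads and not distinct molecules were counted. Healthy 1 stood apart. Across the genes tested, log2 levels of healthy 1 correlated with those of the other libraries at an r of 0.76 to 0.82, and the other libraries with each other at 0.85 to 0.90. Healthy 1 also had the fewest genes with a count, 10861 against 11822 to 13229. HCC 2 and HCC 3 carry the same first number in their table names, although the titles and design text count 3 mice. T cell and iNKT markers summed to 4002 to 5145 CPM in each library, and 13 of 14 were tested. Of the defining markers, Zbtb16, which encodes PLZF, had 0 to 3 counts in every library. Klrb1c, the NK1.1 antigen gene, had only 5.49 CPM for healthy 2 and 20.9 CPM for HCC 2, against 333 to 465 CPM in the other libraries.

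Promoter windows of the members, from 250 bases before to 50 after the RefSeq start (GRCm38.p6), were searched for 2 sets of letters. These were TTCNNNGAA, the palindromic GAS element that STAT dimers bind, and CCGGAA on either strand, 1 form of the site bound by ETS factors. Other forms of the ETS site were not searched. RefSeq windows were at hand for 9 of the 10 genes, 11 windows in all, with none for Il2rb. The GAS letters occurred in 1 of the 11 windows, that of Il7r, against 8.30% of all 32851 windows, and the ETS letters in 3, those of Il2rg, Stat5b and Stat6, against 14.9%. Il2rg and Jak1 were the 2 most abundant members for which every HCC library lay above both healthy ones, and for Il7r the groups overlapped. Below are the 250 bases before the start of Il2rg, Jak1 and Il7r. They are written 5' to 3' on the strand of the gene with matches in capitals. They lie at chrX:101268256-101268505, minus strand, chr4:101265224-101265473, minus strand, and chr15:9529877-9530126, minus strand.
Il2rg: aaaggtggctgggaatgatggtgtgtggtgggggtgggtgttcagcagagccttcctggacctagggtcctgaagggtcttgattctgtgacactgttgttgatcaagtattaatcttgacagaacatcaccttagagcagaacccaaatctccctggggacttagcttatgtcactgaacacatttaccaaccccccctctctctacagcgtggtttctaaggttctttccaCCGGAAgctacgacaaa
Jak1: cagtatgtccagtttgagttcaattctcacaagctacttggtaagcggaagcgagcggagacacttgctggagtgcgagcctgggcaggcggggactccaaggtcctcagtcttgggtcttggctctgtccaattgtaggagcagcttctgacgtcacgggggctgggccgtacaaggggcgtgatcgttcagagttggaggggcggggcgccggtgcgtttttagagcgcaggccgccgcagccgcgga
Il7r: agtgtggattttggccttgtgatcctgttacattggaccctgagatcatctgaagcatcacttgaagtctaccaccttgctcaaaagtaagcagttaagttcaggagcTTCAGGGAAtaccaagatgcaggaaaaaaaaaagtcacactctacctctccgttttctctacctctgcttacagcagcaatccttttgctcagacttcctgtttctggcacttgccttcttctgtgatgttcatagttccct
The ETS match of Il2rg begins at position -17 and the GAS match of Il7r at position -142, counting the base before the start as -1. Jak1 has neither in this window. Cish, a feedback inhibitor that STAT5 induces, has 2 GAS matches side by side at its start, shown in capitals in a stretch of 30 bases at chr9:107296654-107296683, plus strand.
Cish: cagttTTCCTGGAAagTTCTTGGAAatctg
A match describes letters only and the libraries carry no measure of binding. The starts used here are those of RefSeq, and GENCODE places some starts further upstream. By GENCODE, the Il7r and Cish stretches lie inside the gene (chr15:9505788-9530176 and chr9:107296026-107302784). The Jak1 stretch overlaps the end of its gene interval (chr4:101152367-101265282).

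Transcripts of the 5 receptor chains made up most of the signal of the pathway. Together the 10 genes held 2737 and 3668 counts in healthy 1 and 2 and 4010, 4741 and 4112 counts in HCC 1, 2 and 3. These counts correspond to 1230.5 and 2013 CPM in the healthy libraries and to 2182, 2759 and 2183 CPM in the HCC libraries. The receptor chains accounted for 81.7 to 88.3% of them, both JAKs for 9.61 to 16.1% and the 3 STATs for 1.31 to 2.19%. Il2rb alone held 52.8 and 48.8% in the healthy libraries and 41.6 to 44.9% in the HCC libraries. Reads of these libraries come from the 3' end of a transcript, so a count does not grow with transcript length and levels of different genes were compared without division by length. Capture at the 3' end can still differ between genes.

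**Figure D1:**
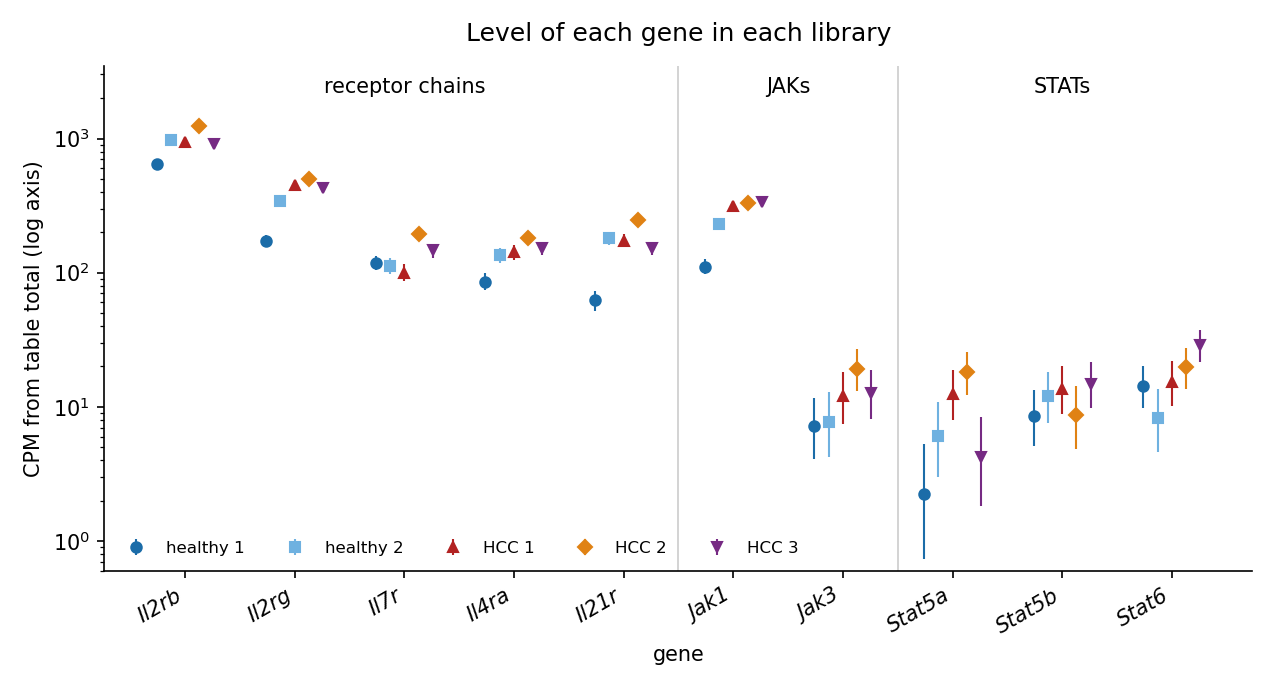
CPM of the 10 genes on a log axis, with 1 symbol per library (2 healthy, 3 HCC) and vertical bars for the 95% exact Poisson interval of the count. Il2rb lies above all others in every library at 649 to 1238 CPM, and Jak3, Stat5a, Stat5b and Stat6 lie under 30 CPM (2.25 to 28.7).

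The order of mean levels over the 5 libraries was Il2rb (945 CPM), Il2rg (378), Jak1 (265), Il21r (163), Il4ra (139), Il7r (134), Stat6 (17.3), Jak3 (11.8), Stat5b (11.6) and Stat5a (8.62). Only 2 steps of this order separated the ranges of the neighbouring genes over all libraries, those from Il2rb to Il2rg and from Il7r to Stat6. Il21r, Il4ra and Il7r did not differ from each other beyond their spread, since Il21r was above Il4ra in 3 of 5 libraries and Il4ra above Il7r in 3 of 5. Jak3 was above Stat5b in 1 of 5. Il2rg was above Jak1 in 5 of 5 libraries, although the ranges of both genes overlapped.

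None of the 10 genes passed the test of HCC against healthy. In edgeR's quasi-likelihood test, adjusted with Benjamini-Hochberg over all genes tested, 0 members were called, where 0% of the 8468 genes were called, and 0 members had an unadjusted p under 0.05 (307 of all genes did). DESeq2 and limma-voom also called 0 members, each with 1 member, Jak1, at an unadjusted p under 0.05, and over all genes they called 8 (356 at an unadjusted p under 0.05) and 0 (208). All 10 fitted fold changes were above 0, where 50.3% of all genes were. Their median log2 fold change was 0.61, against 0.0046 over all genes tested. Without healthy 1, all 10 were still above 0, where 53.3% of all genes were, but their median was 0.38 against 0.059 over all genes. With library totals in place of TMM scaling the median of all genes shifted to 0.16 and that of the members to 0.75. The members were chosen with earlier results of these data known, so these counts describe them and support nothing further. In bulk RNA of sorted cells, fewer cells of a type and less RNA per cell cannot be told apart.

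Healthy 1 held the lowest level of 8 of the 10 genes, where 43.1% of all tested genes were lowest in that library. The exceptions were Il7r, lowest in HCC 1, and Stat6, lowest in healthy 2. With TMM-scaled CPM, 6 of the 10 were lowest in healthy 1. The 43.1% was taken with table totals only and is not the share for that scaling. HCC 2 held the highest level of 7 genes and HCC 3 that of Jak1, Stat5b and Stat6, where 28.8 and 16.8% of all tested genes were highest in these libraries.

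**Figure D2:**
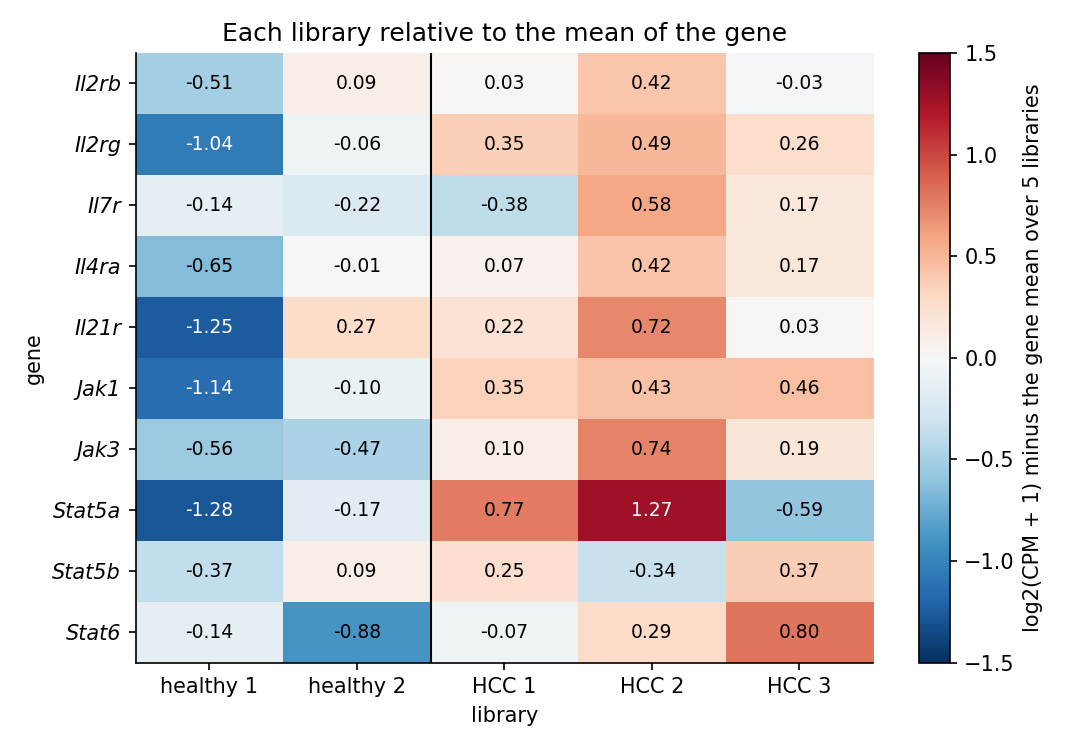
Colour and printed number give log2(CPM + 1) of each gene in each library minus the mean of that gene over the 5 libraries, with a vertical line between healthy and HCC libraries. Healthy 1 is the bluest column for most genes (-1.25 for Il21r, -1.14 for Jak1), and healthy 2 lies close to the HCC libraries for Il2rb, Il4ra and Il21r.

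For 5 of the 10 genes the groups did not overlap and HCC was higher, where this held for 12.8% of the genes tested. They were Il2rg, Il4ra, Jak1, Jak3 and Stat6. With TMM-scaled CPM 4 genes did so, where 10.6% of all genes did, and Stat6 was the one lost. Without healthy 1 the same 5 genes had all HCC libraries above healthy 2, where this held for 24.2% of all genes, and without healthy 2 the count was 9 (45.7% of all genes).

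Il2rg, the common gamma chain itself, was at 172 and 340.3 CPM in the healthy livers against 454, 499.9 and 425 CPM in the HCC livers. The HCC libraries lay close together and above both healthy libraries, which differed 1.98-fold from each other. Group means were 256 ± 119 CPM (SD, n = 2) and 459.6 ± 37.7 CPM (SD, n = 3), with a log2 fold change of 0.70 (SE 0.35, 95% interval -0.086 to 1.49, edgeR adjusted p = 0.9999). Without healthy 1 the log2 fold change was 0.40 (SE 0.32). The gene (ENSMUSG00000031304) lies at chrX:101264378-101268255 (mm10, minus strand), and 39.8% of the 31-base words at its annotated 3' ends also belong to the overlapping Gm20489 on the same strand, a row with 0 counts in all 5 libraries.

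Jak1, the kinase bound by the private receptor chains, showed the same separation of the groups as Il2rg. It was at 111 and 230.0 CPM in the healthy livers against 313, 333 and 338 CPM in the HCC livers. As for Il2rg, no HCC library overlapped the healthy libraries and healthy 1 was the lowest. Means were 171 ± 84.1 CPM (SD, n = 2) and 328 ± 12.99 CPM (SD, n = 3), and the log2 fold change of 0.81 (SE 0.36, 95% interval -0.00017 to 1.62, edgeR adjusted p = 0.9999) was 0.49 without healthy 1 (SE 0.33). This was the member with the smallest unadjusted p in edgeR (0.0546). Leaving out healthy 2 gave 1.27 for Jak1 and 1.13 for Il2rg, still short of the threshold in edgeR (adjusted p = 0.0828 and 0.101), where healthy 1 as the only healthy sample takes its variance from the HCC group. Counts of Jak1 relative to those of Il2rg, which no scaling can change, were 0.65 and 0.68 in the healthy libraries and 0.69, 0.67 and 0.80 in the HCC libraries. The ratio thus varied less between libraries than either gene. None of the 3' words of Jak1 (ENSMUSG00000028530, chr4:101152367-101265282, mm10, minus strand) is shared, and its 3' end overlaps Raver2 on the other strand, at 9.44 to 23.6 CPM.

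Il2rb, the chain shared by the IL-2 and IL-15 receptors, was the most abundant member and differed less between the groups. It reached 649 and 983 CPM in the healthy livers against 946, 1238 and 909 CPM in the HCC livers. Healthy 2 lay within the range of the HCC libraries, so the groups overlapped. The means were 816 ± 236 CPM (SD, n = 2) and 1031 ± 180.1 CPM (SD, n = 3), and the log2 fold change was 0.17 (SE 0.33, 95% interval -0.57 to 0.92), or 0.033 with healthy 1 left out. The gene (ENSMUSG00000068227) lies at chr15:78479256-78495271 (mm10, minus strand), and none of its 3' words is shared.

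The balance of Il2rb and Il2rg counts within a library differed between the groups. There were 3.78 and 2.89 counts of Il2rb for each count of Il2rg in healthy 1 and 2, and 2.09, 2.48 and 2.14 in HCC 1, 2 and 3. As a share of both genes Il2rb was 79.1% (95% exact binomial interval 77.1 to 80.9%) and 74.3% (72.5 to 76.0%) in healthy 1 and 2. It was 67.6% (65.7 to 69.4%), 71.2% (69.6 to 72.9%) and 68.1% (66.3 to 69.9%) in HCC 1, 2 and 3. Every HCC library was below both healthy libraries, though the intervals of healthy 2 and HCC 2 overlapped at their edges. This pair, like the other pairs given here, was chosen after the values were seen, so the difference is described without a test.

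**Figure D3:**
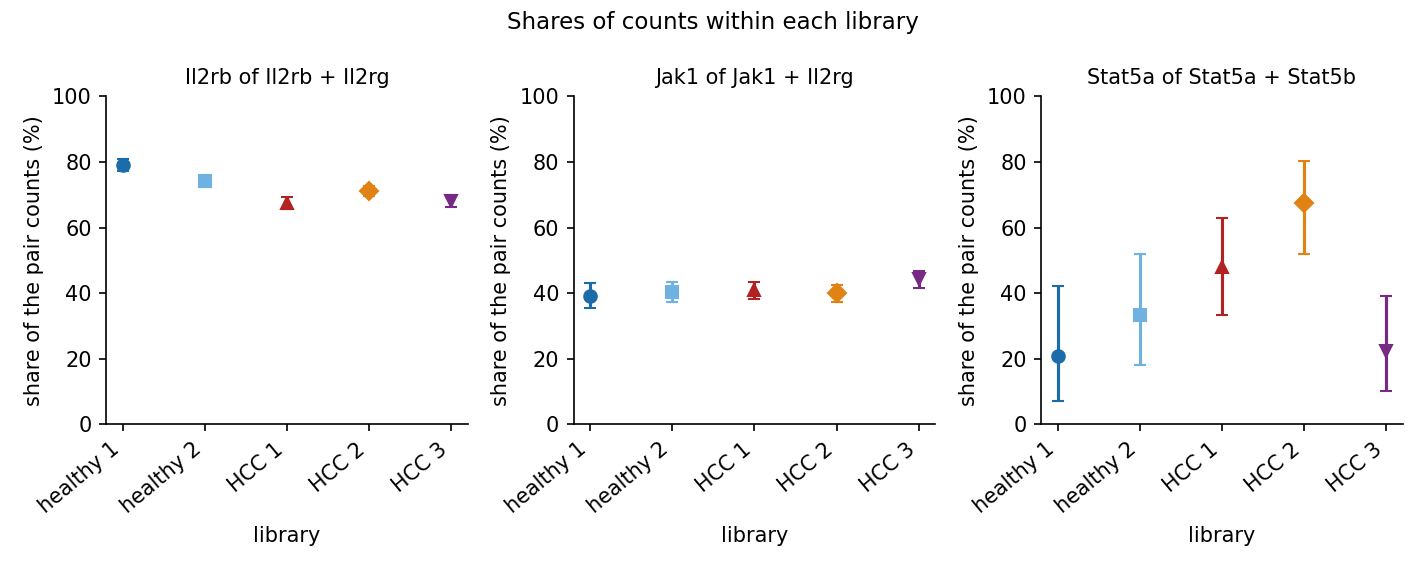
Share in percent of the counts of a pair of genes that belongs to the first gene, in each library, with 95% exact binomial intervals. The Il2rb share is 79.1 and 74.3% in the healthy libraries and 67.6 to 71.2% in the HCC libraries, the Jak1 share is 39.3 to 44.3%, and the Stat5a share runs from 20.8 to 67.4% with no separation of the groups.

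The private receptor chains for IL-4, IL-21 and IL-7 were at similar levels and differed in library pattern. Il4ra, which binds IL-4 and, with another chain, IL-13, was at 85.9 and 134 CPM in the healthy livers against 141, 182 and 152 CPM in the HCC livers. The HCC libraries were all above the healthy ones, but HCC 1 exceeded healthy 2 by less than the counting error (141 CPM with an interval of 125 to 160, against 134 with 118 to 152). Its log2 fold change was 0.36 (SE 0.35, 95% interval -0.41 to 1.14), with 0.20 without healthy 1 and 0.59 without healthy 2.

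Il21r, the IL-21 receptor, was at 62.0 and 180.0 CPM in the healthy livers against 174, 246 and 152 CPM in the HCC livers. Healthy 1 was far below the other 4 libraries, and healthy 2 was higher than 2 of the HCC libraries. The log2 fold change of 0.53 (SE 0.43) was 0.040 without healthy 1, and without healthy 2 it was 1.31 (edgeR adjusted p = 0.101). Il4ra (ENSMUSG00000030748) and Il21r (ENSMUSG00000030745) are neighbours on chromosome 7 in the same orientation, at chr7:125552120-125579474 and chr7:125603429-125633570 (mm10, plus strand), 23955 bases apart. Their counts stood at a ratio of 1.38 in healthy 1 and of 0.74 to 1.00 in the other libraries.

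Il7r, the private chain of the IL-7 receptor, was the only receptor chain of the 5 that was not lowest in healthy 1. It was at 118 and 112 CPM in the healthy livers against 100.1, 195 and 146 CPM in the HCC livers. HCC 1 was the lowest library and HCC 2 the highest, so the HCC libraries enclosed the healthy ones. This is the member whose RefSeq promoter window, printed above, holds the GAS letters. The means were 115 ± 4.43 CPM (SD, n = 2) and 147 ± 47.4 CPM (SD, n = 3), and the log2 fold change was 0.15 (SE 0.39), or 0.35 with healthy 1 and -0.036 with HCC 2 left out. The gene (ENSMUSG00000003882) lies at chr15:9505788-9530176 (mm10, minus strand), and 6.67% of its 3' words are shared, against 3.94% for Il21r and none for Il4ra.

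Markers of other lymphocytes that carry some of these receptors were low, and those of B and plasma cells were lowest in healthy 1. The 8 B and plasma cell markers summed to 36.0 CPM in healthy 1, 124 CPM in healthy 2 and 113 to 175 CPM in the HCC libraries. Ighm made up most of it (31.02 to 102 CPM), and the defining marker Pax5 was at 0 to 0.544 CPM. Igkc was at 0 in healthy 1 only, and Cd79b was at 0 in healthy 1 and HCC 1. Other markers of the list went the other way. Ms4a1 was highest in healthy 1 (3.60 CPM), and Cd79a was at 1.35 CPM there and at 0 in HCC 1 and HCC 3. B cells express Il4ra and Il21r, and the part of these markers in the values of both genes was not tested. The 6 NK cell markers summed to 98.0 and 63.1 CPM in the healthy and 38.7 to 90.3 CPM in the HCC libraries. Gzma made up most of the sum in healthy 1 (65.6 CPM), whereas Klri2 was lowest there (28.8 CPM) and highest in HCC 1 (57.1 CPM). The defining NK gene Ncr1 had 0 counts in every library. The 7 markers of naive T cells, which carry Il7r, summed to 76.4 and 88.4 CPM in the healthy and 86.0 to 145 CPM in the HCC libraries, with HCC 2 highest for this sum and for Il7r, and the part of this in the Il7r values was not tested. Hepatocyte markers (19 genes, Apob and Tat at 0 throughout) summed to 49.9 and 62.0 CPM in the healthy and 67.5 to 701 CPM in the HCC libraries, erythroid markers (6 genes) to 2787 to 2975 and 7391 to 17083 CPM. By library, the hepatocyte markers were at 67.5, 325 and 701 CPM in HCC 1, HCC 2 and HCC 3. The part of these and the erythroid markers in the values of the members was not tested. Markers of macrophages, dendritic cells, liver endothelium and stellate cells summed to 0 to 48.1 CPM, and of the 8 neutrophil markers Mmp9 alone gave 311 to 587 of 320.0 to 589 CPM, with Mpo, Elane and Csf3r at 0 in every library.

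The gamma chain kinase gene Jak3 had few counts, 16 and 14 in healthy 1 and 2 and 22, 33 and 24 in HCC 1, 2 and 3. These are levels of 7.19 and 7.68 CPM against 11.97, 19.2 and 12.7 CPM, with every HCC library above both healthy libraries. The intervals overlapped between healthy 2 (4.20 to 12.9 CPM) and HCC 1 (7.50 to 18.1 CPM). The log2 fold change was 0.77 (SE 0.67, 95% interval -0.73 to 2.29), and 0.88 without healthy 1. For each Jak3 count there were 15.4 to 29.9 Jak1 counts. Jak3 (ENSMUSG00000031805, chr8:71676296-71690575, mm10, plus strand) shares 49.8% of its 3' words with Insl3, which overlaps it on the same strand. Insl3 encodes a hormone of Leydig cells, and its row held 13 and 10 counts in the healthy and 8, 12 and 22 counts in the HCC libraries. How the reads of this overlap were assigned is not given in the sources used here, so the Jak3 row may hold only part of the Jak3 reads.

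**Figure D4:**
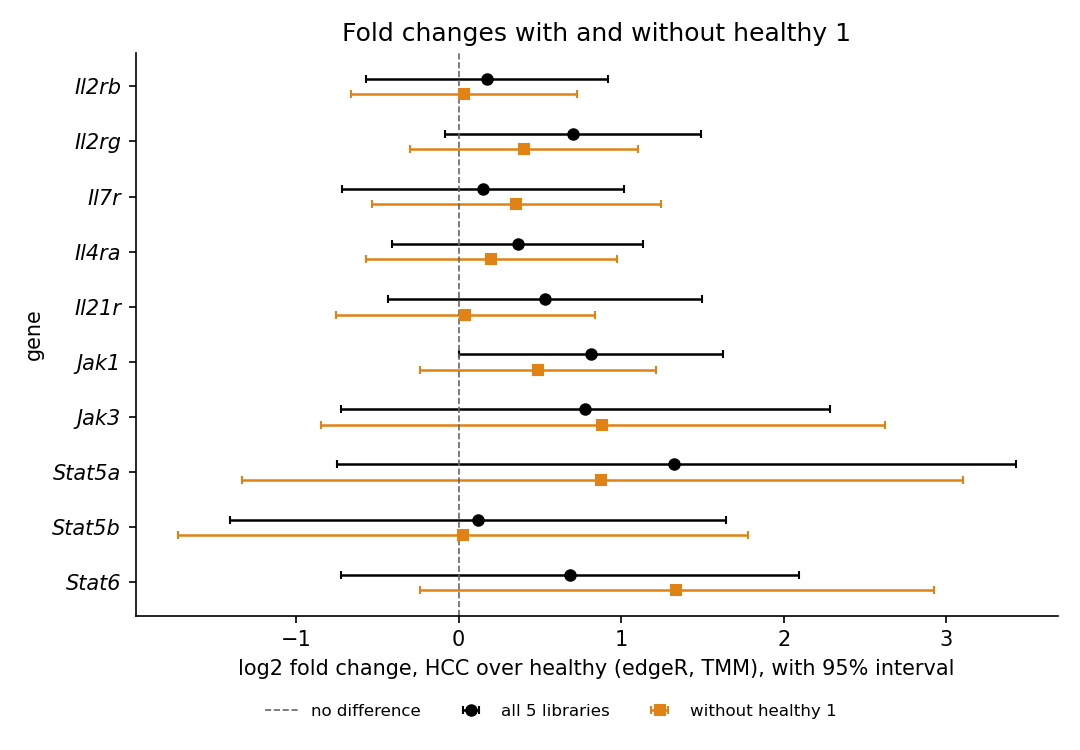
Fitted log2 fold changes of HCC over healthy libraries with 95% intervals from edgeR, for all 5 libraries (black) and without healthy 1 (orange). All points lie right of 0 in both fits and all intervals include 0, and Il21r moves from 0.53 to 0.040 without healthy 1 while Stat6 moves from 0.68 to 1.34.

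Stat5a and Stat5b, paralogs whose products mediate most IL-2, IL-7 and IL-15 signalling, lie 8627 bases apart on chromosome 11 in opposite orientation, Stat5a (ENSMUSG00000004043) at chr11:100859351-100885169 (mm10, plus strand) and Stat5b (ENSMUSG00000020919) at chr11:100780731-100850724 (minus strand). Stat5a had 5 and 11 counts in healthy 1 and 2 and 23, 31 and 8 counts in HCC 1, 2 and 3. Its levels were 2.25 and 6.04 CPM against 12.5, 18.04 and 4.25 CPM. HCC 1 and HCC 2 were above the healthy libraries, whereas HCC 3 lay between them. The log2 fold change of 1.33, the highest of the 10 genes, had the widest interval (SE 0.93, -0.75 to 3.43). It was 0.88 without healthy 1, where Stat6 was higher, 0.93 without HCC 2 and 2.02 without healthy 2.

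Stat5b was at 8.54 and 12.1 CPM in the healthy livers against 13.6, 8.73 and 14.9 CPM in the HCC livers, so the groups overlapped (log2 fold change 0.12, SE 0.68, and 0.026 without healthy 1). The share of Stat5a in the counts of both genes was 20.8% (7.13 to 42.2%) and 33.3% (17.96 to 51.8%) in healthy 1 and 2. It was 47.9% (33.3 to 62.8%), 67.4% (52.0 to 80.5%) and 22.2% (10.1 to 39.2%) in HCC 1, 2 and 3. HCC 2 and HCC 3, at the extremes of the HCC group, did not overlap in these intervals, which come from 36 to 46 counts. Of the 3' words of Stat5a 12.2% also occur in Stat5b, and the 3' end of Stat5a overlaps that of Stat3 on the other strand (Stat3 was at 39.6 and 14.3 CPM in the healthy and 13.6, 42.5 and 21.2 CPM in the HCC libraries).

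Stat6, which acts downstream of IL-4, was at 14.4 and 8.23 CPM in the healthy livers against 15.2, 19.8 and 28.7 CPM in the HCC livers. HCC 3 was the highest and healthy 2 the lowest, and HCC 1 exceeded healthy 1 by less than the counting error. The log2 fold change was 0.68 (SE 0.63, 95% interval -0.72 to 2.097) and 1.34 (SE 0.72) when healthy 1 was left out, whereas leaving it out lowered the value of 7 members. Without HCC 3 it was 0.37. Stat6 (ENSMUSG00000002147, chr10:127642986-127660957, mm10, plus strand) shares none of its 3' words, and Nab2 overlaps its end on the other strand at 3.18 to 13.4 CPM. The 3 STATs together were at 25.8 ± 0.828 CPM (SD, n = 2) and 45.2 ± 3.41 CPM (SD, n = 3), with 48 to 90 counts per library.

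Feedback inhibitors of the pathway were mostly detected, and Cish, whose start is printed above, showed no overlap of the groups. Cish was at 8.54 and 23.6 CPM in the healthy livers against 29.4, 33.2 and 34.0 CPM in the HCC livers. All HCC libraries were above both healthy libraries, and healthy 1 was lowest. The counting intervals of Cish still overlapped between healthy 2 (17.1 to 31.8 CPM) and HCC 1 (22.1 to 38.3 CPM). The log2 fold change was 0.89 (SE 0.53), and 0.42 without healthy 1. Among the 17 listed feedback inhibitors and phosphatases 14 were tested, 0 were called in either direction, 8 were fitted higher and the median log2 fold change was 0.31. Socs2, another STAT5-induced inhibitor, was at 65.8 ± 8.56 CPM (SD, n = 2) and 93.2 ± 35.9 CPM (SD, n = 3), with 48.0% of its 3' words shared with other rows. Ptpn1, a phosphatase that acts on JAKs, was at 39.9 ± 5.62 and 59.7 ± 15.4 CPM, with no overlap of the groups. Cish and Ptpn1 were the 2 of the 14 tested genes with every HCC library above both healthy ones, where 12.8% of all genes tested were. For 1 gene, the phosphatase gene Ptpn2, every HCC library was below both healthy ones (log2 fold change -0.93, SE 0.61). The share of all genes tested with this downward pattern was not counted. Whether 1 of the 14 is many or few therefore cannot be told. Ptpn6, which encodes the phosphatase SHP-1, was at 9.44 CPM in healthy 1 and at 35.4 to 74.8 CPM in the other 4 libraries.

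Of the other JAK and STAT genes, Jak2 also had every HCC library above both healthy libraries. Unlike for Jak1, its counting intervals overlapped, between healthy 2 (19.0 to 34.3 CPM) and HCC 3 (29.0 to 46.9 CPM). Jak2, the kinase of receptors such as those for interferon gamma, was at 17.98 and 25.8 CPM in the healthy livers against 47.3, 47.7 and 37.2 CPM in the HCC livers. Its log2 fold change of 0.84 (SE 0.43) was 0.74 without healthy 1, so it rested less on that library than those of Il2rg and Jak1. None of its 3' words is shared. Stat4, the STAT of IL-12 signalling, averaged 33.1 ± 9.90 CPM in healthy (SD, n = 2) and 29.7 ± 9.71 CPM in HCC livers (SD, n = 3). Of this list 5 of 6 genes were tested, 0 were called, 2 were fitted higher and the median was -0.30, which was 0.47 without healthy 1.

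Other receptor chains of the family were scarce, apart from the receptor for thymic stromal lymphopoietin. Crlf2, the chain that pairs with Il7r in that receptor, was at 36.0 and 72.5 CPM in the healthy livers against 41.4, 150.1 and 77.5 CPM in the HCC livers. HCC 2 was highest, as it was for Il7r. Il2ra, the high-affinity IL-2 chain that marks activated and regulatory T cells, was at 10.8 and 11.5 CPM and at 13.1, 11.1 and 22.3 CPM. Il15ra had at most 4.07 CPM, and Il9r and Il13ra1 had 0 counts in all libraries, which allows up to 1.75 CPM. Of these 5 genes 2 were tested and 0 called, with a median of 0.43.

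Of the 8 ligand genes only Il2 and Il4 had enough counts to be tested, and 0 were called. Il2 was at 102 and 36.2 CPM in the healthy livers against 60.4, 50.05 and 51.0 CPM in the HCC livers, so the healthy libraries enclosed the HCC libraries. Its log2 fold change was -0.62 (SE 0.53), and 0.55 without healthy 1, and 58.2% of its 3' words also occur in Ntan1. Il4, the cytokine that signals through Il4ra and Stat6, was at 1.35 and 4.39 CPM against 5.99, 12.8 and 7.96 CPM (log2 fold change 1.49, SE 1.02, 0.96 without healthy 1). The lowest of these values are near the limit of 3 counts. Il21 was at 0 to 4.95 CPM, and Il7, Il9 and Il15, which are made mostly by stromal, epithelial and myeloid cells or by other T cells, had 0 counts in every library.

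Genes that STAT5 and STAT6 are known to induce were fitted in both directions. Of 14 STAT5 targets 10 were tested, 0 were called, 7 were fitted higher and 3 lower, with a median log2 fold change of 0.19 that was 0.038 without healthy 1. The cyclin genes Ccnd2 and Ccnd3 were abundant, at 818 ± 56.0 and 862 ± 40.5 CPM and at 629.99 ± 119.7 and 844 ± 96.5 CPM (SD, n = 2 and n = 3). Bcl2l1, which encodes the survival protein BCL-XL, was lower in all HCC libraries, at 52.6 and 46.7 CPM against 33.2, 27.9 and 34.0 CPM (log2 fold change -0.84, SE 0.43, -0.58 without healthy 1). As for Ptpn2, no share of all genes tested was counted for this direction. Bcl2 was at 160.0 and 96.1 CPM against 96.9, 76.8 and 149 CPM. Of 9 STAT6 targets 2 were tested and 0 called (median 0.13, and -0.096 without healthy 1), 5 had 0 counts and Fcer2a had at most 2.196 CPM. Gata3, the T helper 2 factor induced by STAT6, was at 31.02 and 54.3 CPM against 60.9, 59.9 and 65.8 CPM, a lack of overlap with HCC 2 close above healthy 2. Xbp1 was at 40.6 ± 15.5 and 40.7 ± 4.96 CPM.

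The PI3K and Ras arm of the receptors held 17 tested genes of 20, of which 0 were called and 11 were fitted higher (median 0.10, and -0.061 without healthy 1). Pik3cd, the leukocyte PI3K subunit, was at 236 ± 83.2 and 298 ± 50.5 CPM, and Akt2, a kinase downstream of it, at 86.8 ± 14.7 and 76.1 ± 21.4 CPM (SD, n = 2 and n = 3). Sos1, a Ras exchange factor, was at 1.35 and 0.55 CPM in the healthy libraries, under the limit of 3 counts in healthy 2, and at 6.53, 4.07 and 9.02 CPM in the HCC libraries. Rps6 was at 691 ± 79.3 and 871 ± 221 CPM, and 84.4% of its 3' words also occur in other rows, mostly pseudogenes.

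**Figure D5:**
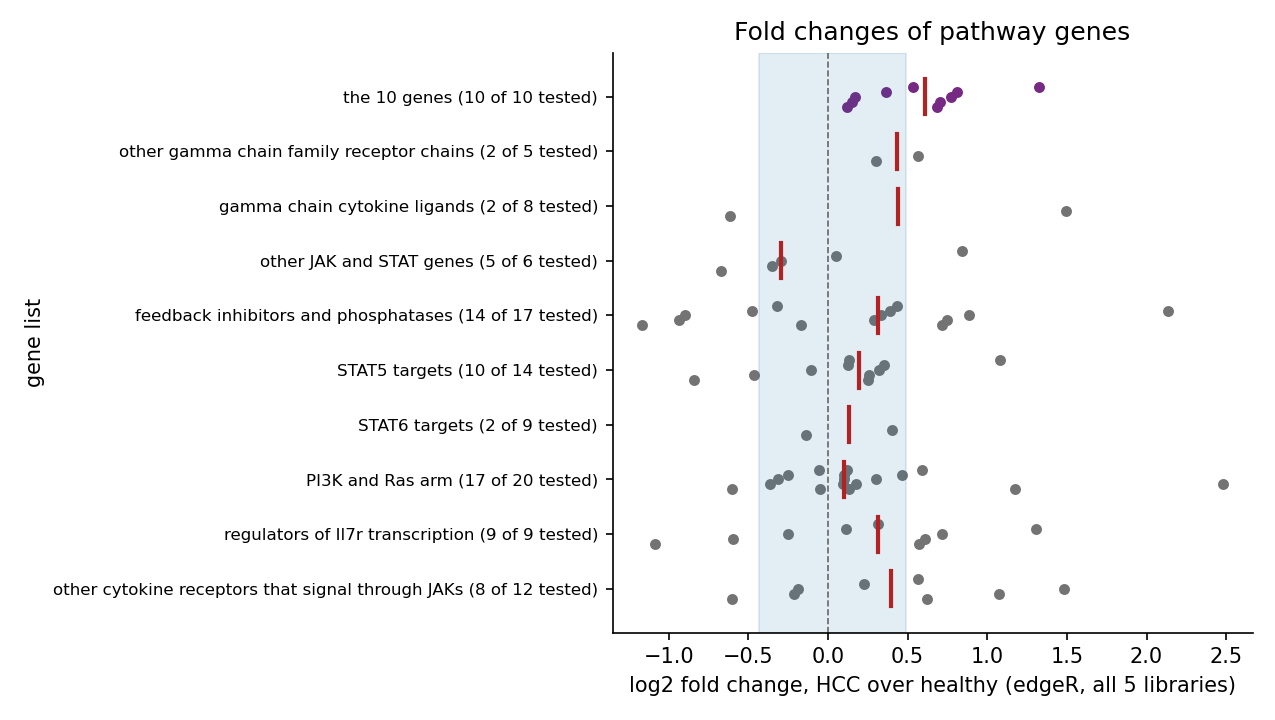
Log2 fold changes of HCC over healthy libraries (edgeR, all 5 libraries) for every tested gene of the lists, with a red bar at each list's median and a blue band from the lower to the upper quartile of all 8468 genes (-0.43 to 0.49). The 10 members (purple) run from 0.12 to 1.33 with a median of 0.61, and the medians of the other lists lie between -0.30 and 0.44. In the fit without healthy 1, not drawn, the median of the members is 0.38. That of the ligands (2 genes tested) is then 0.75 and that of the other JAK and STAT genes (5 tested) 0.47, with the remaining lists lower than the members.

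The genes closest in library pattern to Il2rb and Il2rg came from several cell functions. Among 1954 other genes whose mean reached 50 CPM, likeness was measured as the root mean square difference of log2(CPM + 1), centred on each gene's mean, over the 5 libraries. Closest to Il2rb were Actr2, a subunit of the actin-nucleating Arp2/3 complex (0.032), Cd44, an adhesion receptor of activated and memory T cells (0.040), and Shisa5 (0.068). Closest to Il2rg were Ripor2, a RHOA inhibitor (0.073), Cs, the citrate synthase of the mitochondrion (0.093), and Clptm1l (0.096). Jak1 ranked 5 of 1954 for likeness to Il2rg (0.10), and Il4ra ranked 16 for likeness to Il2rb (0.11). Healthy 1 was the lowest library for each of these genes.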

How the data were processed

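The authors deposited 1 table of raw counts per library, by Ensembl gene ID, from QuantSeq 3' mRNA libraries for Ion Torrent, per the labels' protocols. The submitters' processing notes name mm10 and, without roles, the tools HISAT2, Bowtie2, bcl2fastq, limma, edgeR, DESeq and DESeq2. The counting program, annotation and strand setting are not given in the sources used here. Symbols and positions came from GENCODE M21 (mm10) by gene ID, for 55104 of 55364 rows. CPM used each table's total.

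In R 4.3.3, edgeR 4.0.16 (filterByExpr, TMM, quasi-likelihood F test, Benjamini-Hochberg over all genes, threshold 0.05) compared HCC with healthy libraries. SE and intervals use that fit's variance. The common biological coefficient of variation was 53.8%. DESeq2 1.42.0 and limma-voom (limma 3.58.1) were alternatives. Pairs of libraries differed by more than sampling noise.

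Members and lists were chosen with earlier results of these data known. Named were all members, the 3 most abundant genes and that with the smallest p in each list, and the 3 genes closest to Il2rb and Il2rg in pattern, of which 1 gene is not reported here. 3' words are 31-base words in the last 300 bases of coding transcripts. Promoter sequences are from RefSeq (GRCm38.p6).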

Additional observations from a re-analysis of the deposited data

How the results depend on the processing

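The count of members past the threshold was 0 in edgeR under every alternative run, and 0 with DESeq2 and limma-voom. Over all genes the count of 0 became 53 when low counts were kept, 8 by the DESeq2 Wald test and 3 with the replicate block, and it ranged from 0 to 196 when 1 library was left out (196 without healthy 2). The replicate numbers were not shown to pair mice. Deviations from the group means correlated at 0.00014 between libraries numbered 1, at 0.12 between those numbered 2 and at 0.13 between healthy 1 and HCC 3. Deviations of healthy 1 and healthy 2 mirror each other by construction, so these values cannot decide whether numbers pair mice. With the replicate block the median of the members was 0.59 and Stat5b was at -0.11.

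The median log2 fold change of the members, 0.61, ranged from 0.38 (without healthy 1) to 0.65 (without healthy 2) when 1 library was left out. Of the members, 3 of 140 alternative values changed sign (Stat5b with the block and without HCC 3, Il7r without HCC 2). The count of members with every HCC library above the healthy ones was 5, where this held for 12.8% of all genes tested. It was 5 without healthy 1 (24.2% of all genes) and 9 without healthy 2 (45.7%). With any 1 HCC library left out it was 6 (17.7 to 20.9%). Summed over the members, the group means were 1622 (healthy) and 2375 CPM (HCC), 2884 and 4059 with totals of protein-coding genes, and 806 and 1344 without Il2rb, by construction. With 1 library left out they ran from 1230.5 to 2013 and from 2182 to 2471 CPM.

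Among other named genes 23 of 388 alternative values changed sign, none of them called. With the replicate block Il2ra was at -0.11 and Socs2 at -0.063. With library totals Ccnd2 was at 0.075, Xbp1 at 0.0059 and Ifngr1 at 0.064, and with limma-voom Ifngr1 was at 0.037. The rest came from leaving out 1 library, which gave ranges of -0.036 to 0.36 for Il7r, -0.061 to 0.35 for Stat5b, -0.092 to 0.54 for Il2ra, -1.20 to 0.55 for Il2, -0.029 to 0.59 for Socs2, -0.51 to 2.21 for Ptpn6 and -0.85 to 0.15 for Bcl2. The ranges were -0.36 to 0.17 for Xbp1, -0.28 to 0.72 for Pik3cd, -0.081 to 0.41 for Rps6, -0.018 to 1.79 for Foxo1, -0.22 to 0.43 for Ets1, -0.38 to 1.29 for Il10rb and -0.76 to 0.95 for Ifngr1. The cause was not tested. With 5 to 54 counts per library, depth limits Jak3, Stat5a, Stat5b and Stat6.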

Other observations

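Transcription factors known to act on Il7r were tested for 9 of 9 genes, with 0 called, 6 fitted higher and a median log2 fold change of 0.32 (-0.018 without healthy 1). Foxo1, which activates Il7r in T cells, was at 12.1 and 51.0 CPM against 71.8, 47.7 and 34.5 CPM, an order unlike that of Il7r. Foxp1, which opposes Foxo1 at that gene, was at 47.7 and 35.1 CPM against 13.6, 36.1 and 19.1 CPM (log2 fold change -1.09, SE 0.53). Klf2, a target of Foxo1, was at 23.8 and 63.1 CPM against 64.2, 58.8 and 86.0 CPM, and Ets1 at 102 and 179 CPM against 127, 254 and 129.5 CPM.

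Receptors of other cytokines that use JAKs were tested for 8 of 12 genes, with 0 called, 5 fitted higher and a median of 0.40 (0.23 without healthy 1). Ifngr1, the ligand-binding chain of the interferon gamma receptor, had the opposite order of the healthy libraries to Il2rg. It was at 384 and 141 CPM against 282, 217 and 325 CPM. Il12rb2, the inducible IL-12 receptor chain, was at 2.25 and 14.8 CPM against 23.9, 17.5 and 15.4 CPM, with no overlap but with HCC 3 close to healthy 2. Il10rb was at 17.98 and 68.6 CPM against 42.4, 76.2 and 45.1 CPM, and Ifnar2 at 22.5 and 30.2 CPM against 20.1, 36.1 and 21.2 CPM.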
